A study of Mus musculus with 4 samples.

Results

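The genes described here encode tubulins, stathmins, neurofilament chains and other proteins of neuronal microtubules and growth cones. They were chosen by name, not by level: every alpha-, beta- and gamma-tubulin with a numbered symbol, stathmins Stmn1 to Stmn4, the neurofilament genes Nefl, Nefm and Nefh, and 23 further genes given by symbol. The choice gave 48 of the 24319 gene names in the deposited tables. RNA-seq of 2 normal prostates and 2 tumours of TRAMP mice was compared in a study of TET methylcytosine dioxygenases and DNA hydroxymethylation in this prostate cancer model. The normal prostates came from wild-type F1 males of C57BL/6 and FVB parents at 22 weeks. The tumours came from F1 males of the same strains at 24 weeks (24 to 28 weeks in the protocol text), heterozygous for a transgene in which the rat probasin promoter, active in prostate epithelium, drives SV40 large T antigen. The labels name no drug or other agent for either group. The labels do not state whether the tumours were taken from separate mice, and the p-values measure only the spread between these samples.

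Microtubules are polymers of alpha- and beta-tubulin dimers. Gamma-tubulin starts new polymers, microtubule-associated proteins such as tau and MAP2 stabilise them, and stathmins bind free dimers and promote disassembly. Several tubulin isotypes are used by most dividing cells, while others, such as the beta-tubulin of Tubb3, are typical of neurons and of neuroendocrine tumours. Neurofilaments, peripherin, alpha-internexin and nestin form the intermediate filaments of nerve cells and their precursors.

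The tubulin genes are close copies, which limits how far reads can be assigned to one of them. Over the whole coding part (GENCODE M21 transcripts, mouse build GRCm38) Tuba1a was 98.3% identical to Tuba1b and 97.2% identical to Tuba1c, and 85.2% identical to Tuba4a. Of all 50-base stretches of the coding part, 13.8% in Tuba1a, 5.43% in Tuba1b and 9.38% in Tuba1c occurred in no transcript of another gene, against 97.6% in Tuba4a. Over the whole transcript, untranslated ends included, the shares were 35.7%, 17.8%, 39.0% and 51.2%. In all these shares Gm49450, a gene annotated on the same strand that overlaps Tuba1a and Tuba1b, was not counted as another gene. The separate values of Tuba1a, Tuba1b and Tuba1c are therefore uncertain, while their contrast with Tuba4a rests on distinct coding sequence. Tuba4a overlaps Stk16 on the opposite strand, and the sources used here do not say whether fragments were counted by strand.

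Beta-tubulin isotypes differ most at their ends, which carry the acidic tail that motors and microtubule-associated proteins contact. The last 60 coding bases of 5 isotypes (5′ to 3′, stop codon included) show this. Capitals mark bases that mismatch Tubb5 in the alignment or stand opposite a gap in it.
Tubb5: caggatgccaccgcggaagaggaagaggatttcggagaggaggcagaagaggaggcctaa
Tubb4b: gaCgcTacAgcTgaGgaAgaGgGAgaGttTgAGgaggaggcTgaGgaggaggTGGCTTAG
Tubb2a: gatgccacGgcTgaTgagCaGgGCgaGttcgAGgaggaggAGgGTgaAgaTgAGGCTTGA
Tubb3: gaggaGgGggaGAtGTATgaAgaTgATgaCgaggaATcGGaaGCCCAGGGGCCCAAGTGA
Tubb4a: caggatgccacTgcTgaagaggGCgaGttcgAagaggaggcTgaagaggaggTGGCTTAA
In this stretch 35 bases of Tubb3 and 15 of Tubb4a were marked, bases opposite a gap included. Every 50-base stretch of the Tubb3 coding part was found in no other gene's transcripts, as were 99.9% in Tubb5 and 99.7% in Tubb4a. The share was 38.9% in Tubb4b, and 40.0% in Tubb2a and 34.9% in Tubb2b, a pair with 96.5% identity. Values of Tubb3, Tubb4a and Tubb5 are thus well separated from other beta-tubulins at this length, and those of Tubb2a, Tubb2b and Tubb4b are uncertain. Tubb3 overlaps Gm20388, a gene annotated on the same strand, which was not counted as another gene here.

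The deposited unit is FPKM, fragments per kilobase of transcript, scaled to the number of mapped fragments. Depth, estimated from the width of the deposited confidence intervals, was 985509 fragments for normal 1, 1578847 for normal 2, 1431957 for tumour 1 and 1141314 for tumour 2. The 48 genes together held 0.0509% and 0.0495% of all FPKM in the normal prostates, 2.03% in tumour 1 and 0.923% in tumour 2. Of implied fragments they held 0.106% and 0.104% against 2.04% and 0.903%. Levels below are FPKM divided by a scaling factor per library (scaled FPKM), with 2 libraries a group. Shares of all FPKM depend on the total. In it 7 prostate secretion genes summed to 486142 and 552650 scaled FPKM in the normal prostates, against 3.56 and 3696 in the tumours, which lowers the normal shares. Log2 fold changes are tumour minus normal on log2(scaled FPKM + 1), which understates changes of low genes, with the standard error (SE) and a Benjamini-Hochberg adjusted p from limma over 13162 genes. The scaling set the median log2 fold change of all genes tested at 0.07. It was 0.86 with FPKM as deposited and 0.62 with FPKM scaled to the sum of genes under 1% of a library, so every change below is relative to the median gene. The tumours differed from each other in epithelial markers. Summed over 10 luminal epithelium markers, scaled FPKM were 2542 and 2948 in the normal prostates, 317 in tumour 1 and 1547 in tumour 2. Of the markers 4 were listed at 0 in tumour 1. Hoxb13 alone gave 295 of the 317 in tumour 1, against 160 in tumour 2. Each other marker was lower in tumour 1 than in tumour 2.

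Transcripts of this group were far more abundant in both tumours than in either normal prostate. All 4 stathmin genes, the tau gene, 3 of 5 collapsin response mediator genes, all 3 neurofilament chains and all 4 membrane-bound growth cone genes rose, as did Tuba1a, Tuba1b, Tuba1c and both gamma-tubulins, while Tuba4a and Map7 had lower values in the tumours without passing the test. Of the 48 genes, 44 reached an FPKM of at least 1 in at least 2 libraries and were tested. The 20 of these with an FPKM of at least 1 in both normal prostates could have moved either way. Among them 15 rose, 0 fell and 5 did not pass (at an unadjusted p under 0.05, 18 of the 20 differed), where 3.65% of the 10169 genes so defined were called higher and 10.7% lower. Their median log2 fold change was 3.01, against -0.28 over those 10169 genes. The other 24 were under an FPKM of 1 in at least 1 normal prostate, and the filter favours genes of this kind that are higher in the tumours. Among them 19 rose and 5 did not pass, where 30.9% of 2993 such genes were called higher and 0 lower, and their count is given as a description only. Over all 44 genes 34 were called higher, where 9.85% of all genes tested were, and 0 lower, where 8.27% were. In bulk tissue, more cells of a type and more RNA per cell cannot be told apart.

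**Figure D1:**
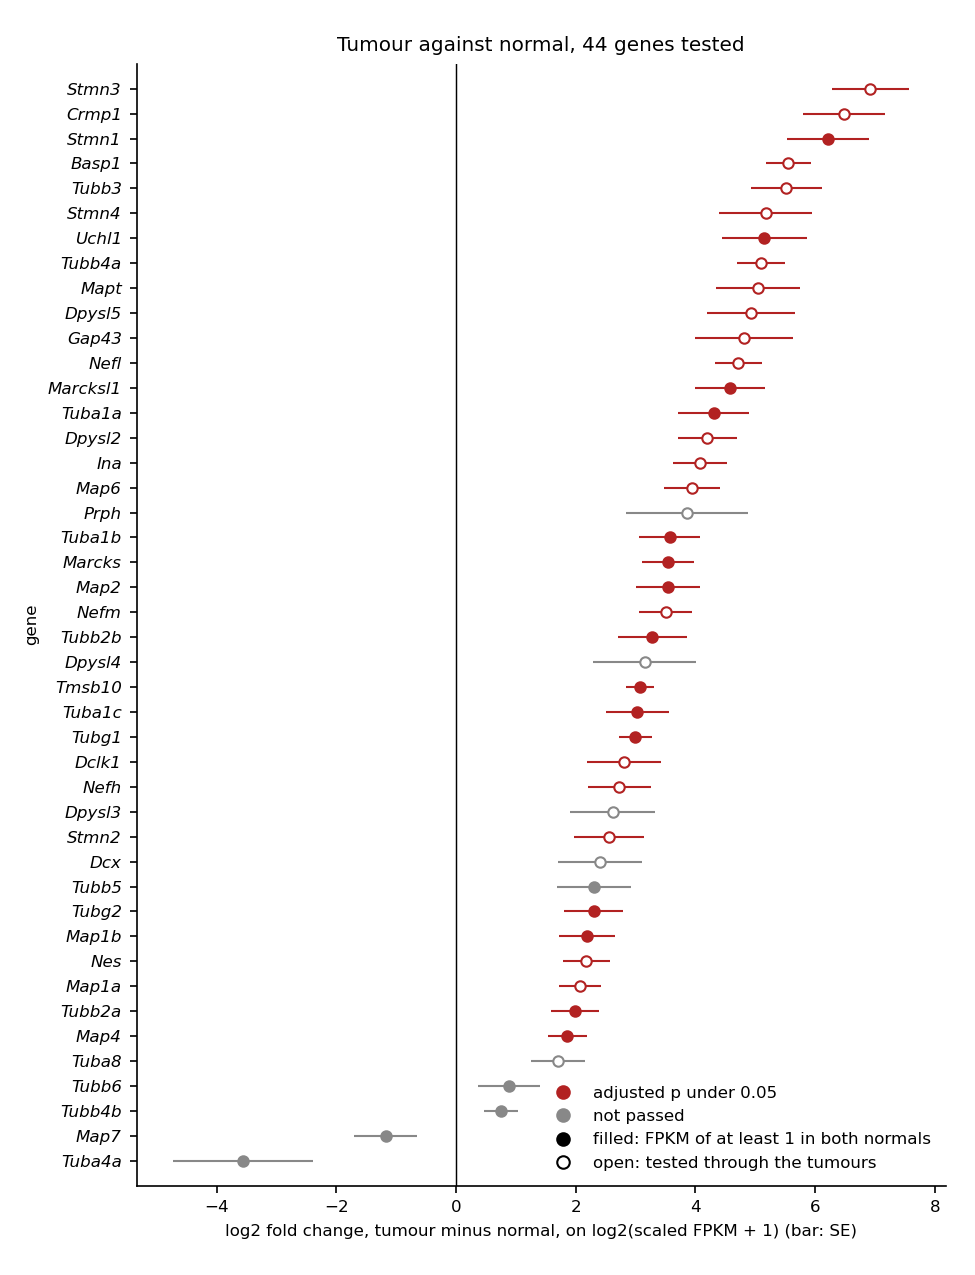
Log2 fold change (tumour minus normal, on log2(scaled FPKM + 1), horizontal axis) with its SE as a bar for each of the 44 genes tested. Red points passed an adjusted p of 0.05, filled points had an FPKM of at least 1 in both normal prostates, and 42 genes lie above 0 while Map7 and Tuba4a lie below it.

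No gene was called once a normal library was left out. Without normal 1, limma called 0 of the 44 genes and 0 of all genes, with 37 of the 44 higher and 1 lower at an unadjusted p under 0.05. Without normal 2 it again called 0, with 36 and 0 at that level. Without tumour 1, 21 of the 23 genes that could be tested were called higher (11.6% of all genes) and 1 lower (20%), and without tumour 2, 19 of 23 were higher (19.7%) and 2 lower (30.8%), a lone tumour being assumed to vary as the normal pair does. With all 4 libraries no setting called a gene of the group lower. FPKM as deposited called 41 higher (28% of all genes higher, 3.24% lower), and scaling to the FPKM sum called 39 (19.3% and 4.21%). Quantile normalization called 28 (6.86% and 6.02%), a pseudocount of 0.1 called 34 (9.92% and 6.18%), no intensity trend 34 (9.19% and 6.4%) and voom 30 (7.95% and 7.51%). When low values were not filtered 14 were called (1.44% and 1.46%), and the 20 calls lost included those of Tuba1a, Tuba1b, Tuba1c, Map2, Mapt, Stmn4 and Uchl1. Both tumours lay above both normal prostates in 42 of the 44 genes, where 37.7% of all genes did, and below them in Tuba4a and Map7, where 33.3% did. Of the 20 genes with an FPKM of at least 1 in both normal prostates 18 lay above, where 2714 of 10169 such genes did. The other 24 all lay above, where 2250 of 2993 such genes did, and the filter favours this order.

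All 4 stathmin genes rose, and Stmn3 had the largest log2 fold change of the 44 genes. Of all genes tested 9.85% were called higher. The share was 30.9% for genes under an FPKM of 1 in at least 1 normal prostate, as Stmn2, Stmn3 and Stmn4 were. Stmn1 (chromosome 4, 134468319 to 134473843), the widely expressed stathmin that is abundant in dividing cells, lay at 20.6 in normal 1 and 8.81 in normal 2 and at 1925 in tumour 1 and 606 in tumour 2. The tumours did not overlap with the normal prostates, and their mean was 86.0 times the normal mean. Its log2 fold change of 6.21 (SE 0.69, adjusted p = 0.0195) ranked 1 among the 10169 genes with an FPKM of at least 1 in both normal prostates. The normal values rested on 18.9 and 11.9 implied fragments and the tumour values on 3984 and 1056. Stmn1 also had the highest scaled FPKM of the 48 genes in both tumours.

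The neuronal stathmins were at or near 0 in normal prostate. Stmn3, a Golgi-anchored stathmin of neurons, lay at 0.997 and 0 in the normal prostates, where the first value is 1 implied fragment, and at 283 and 102 in the tumours. The log2 fold change of 6.92 (SE 0.65, adjusted p = 0.0195) was the highest of the 44 and ranked 6 among all 13162 genes. Stmn4, also neuronal, was listed at 0 in the normal pair and reached 73.2 and 16.5 in the tumour pair (5.17, SE 0.77, adjusted p = 0.0251). Both were higher in tumour 1 than in tumour 2. Stmn2, the growth cone stathmin SCG10, lay at 0 and 1.11 in normal prostate and showed the opposite order in the tumours, with 5.34 in tumour 1 and 10.6 in tumour 2 (2.56, SE 0.59, adjusted p = 0.0468). This call was lost by voom, under quantile normalization, with a pseudocount of 0.1 and when low values were not filtered. Summed over the 4 genes, scaled FPKM were 21.6 and 9.92 against 2287 and 735, and Stmn1 held 84.2% and 82.4% of the tumour sums.

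**Figure D2:**
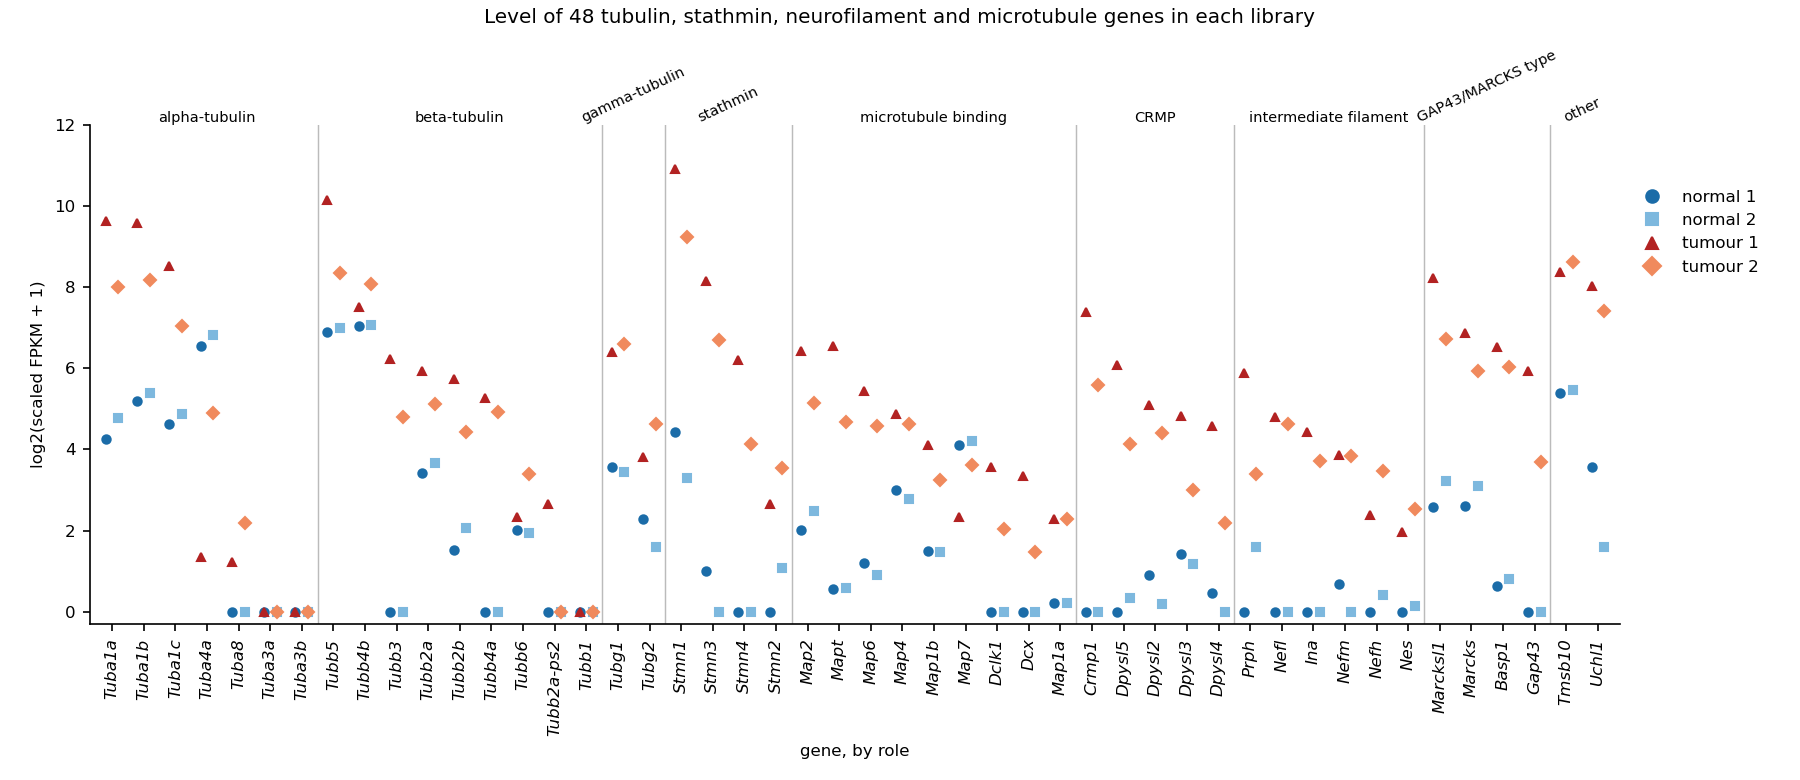
Level of each of the 48 genes as log2(scaled FPKM + 1) (vertical axis) in normal 1, normal 2, tumour 1 and tumour 2, ordered by role and by mean tumour level. Tumour symbols lie above normal symbols for all genes tested but Tuba4a and Map7, and Tuba3a, Tuba3b and Tubb1 are listed at 0 in all 4 libraries.

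Alpha-tubulin transcripts rose in sum and changed in kind. Tuba1a (chromosome 15, 98949846 to 98953501), the main alpha-tubulin of developing neurons, lay at 18.0 and 26.6 in the normal pair against 797 and 256 in the tumour pair (log2 fold change 4.31, SE 0.60, adjusted p = 0.0226), a ratio of means of 23.6. Tuba1b, a broadly expressed copy, lay at 35.8 and 41.1 against 761 and 286 (3.57, SE 0.51, adjusted p = 0.0231). Tuba1c lay at 23.9 and 28.2 against 363 and 131 (3.03, SE 0.53, adjusted p = 0.0308). For all 3 genes both tumours lay above both normal prostates, and tumour 1 above tumour 2. Tuba8 was listed at 0 in the normal pair and reached 1.34 and 3.56 in the tumour pair, on 4.0 and 9.0 implied fragments, without passing (adjusted p = 0.0594). Tuba3a and Tuba3b, a pair of testis type, were listed at 0 in every library and were not tested.

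Tuba4a (chromosome 1, 75214973 to 75219253) went the other way. It lay at 92.3 and 112 in normal prostate, 1.56 in tumour 1 and 28.6 in tumour 2, so the groups did not overlap and the normal mean was 6.77 times the tumour mean. The log2 fold change was -3.56 (SE 1.17, adjusted p = 0.0920), with a difference of tumour 1 minus tumour 2 of -3.53 on the log2 scale. The fold change was negative under every scaling tried (-2.70 with FPKM as deposited). It was -1.72 without tumour 1 and -5.25 without tumour 2. Over the 7 alternatives with the same 4 libraries the adjusted p ranged from 0.0616 (voom) to 0.165 (FPKM as deposited).

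A gene's share of its family within a library does not depend on the scaling between libraries. Tuba4a made up 54.3% and 53.9% of alpha-tubulin FPKM in the normal prostates, 0.0812% in tumour 1 and 4.05% in tumour 2. Tuba1a made up 10.6% and 12.8% against 41.4% and 36.3%, and Tuba1b 21.1% and 19.8% against 39.6% and 40.5%. For each of these genes the difference between the groups exceeded the difference within either pair, although 2 libraries against 2 cannot give an exact two-sided permutation p under 0.333. Taken as a share of implied fragments, Tuba4a held 57.4% and 56.1% against 0.0906% and 4.82%. Tuba4a was the first alpha-tubulin of the normal prostate, and Tuba1a and Tuba1b led in the tumours, with their split uncertain.

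**Figure D3:**
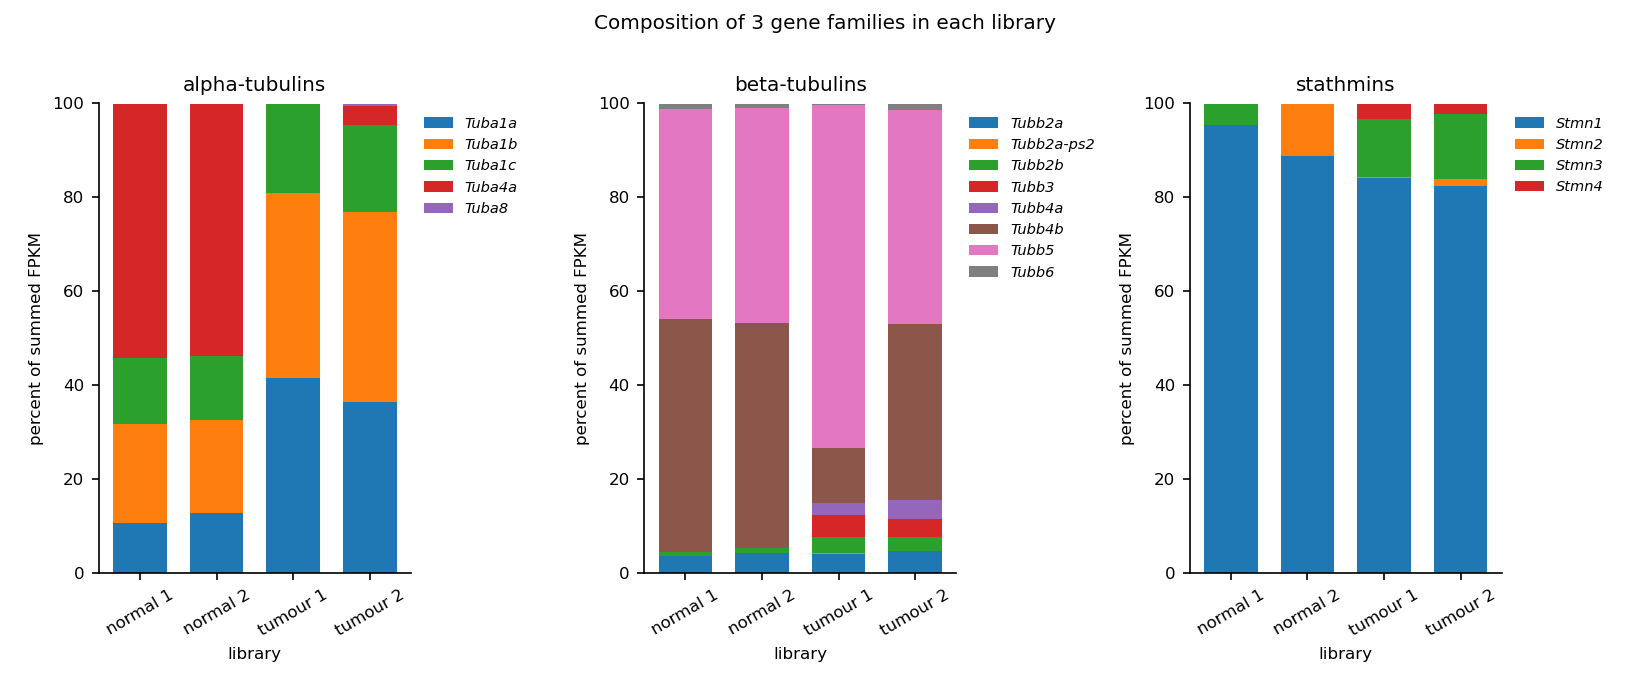
Percent of the summed FPKM of the alpha-tubulins, beta-tubulins and stathmins (vertical axes) held by each gene in normal 1, normal 2, tumour 1 and tumour 2. Tuba4a holds 54.3% and 53.9% of the alpha-tubulin sum in normal prostate and 0.0812% and 4.05% in the tumours, and Tubb3 and Tubb4a appear in the beta-tubulin sum of the tumours only.

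Among beta-tubulins, Tubb3 and Tubb4a, isotypes typical of neurons, were listed at 0 in normal prostate and present in both tumours. They were thus tested through the tumours. Of genes under an FPKM of 1 in at least 1 normal prostate 30.9% were called higher. Tubb3 (chromosome 8, 123411563 to 123422010), the isotype used as a neuronal marker, lay at 74.0 and 27.0 in the tumours on 266.2 and 83.0 implied fragments (log2 fold change 5.52, SE 0.59, adjusted p = 0.0195). Tubb4a, the brain isotype, lay at 37.3 and 29.3 (5.09, SE 0.40, adjusted p = 0.0195), nearly level between the tumours. Both calls held under all 7 alternatives that used the same 4 libraries. Tubb2b, mutated in cortical malformations, lay at 1.89 and 3.18 against 52.5 and 20.4 (3.28, SE 0.57, adjusted p = 0.0305), and its near copy Tubb2a at 9.62 and 11.7 against 60.7 and 33.5 (1.99, SE 0.40, adjusted p = 0.0374). The calls of both copies were lost by voom, and also when low values were not filtered. A fragment named Tubb2a-ps2, a pseudogene, was listed at 5.34 in tumour 1 and 0 elsewhere, and was not tested.

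The isotypes of most tissues did not pass. Tubb5 (chromosome 17, 35833919 to 35838301), the main beta-tubulin of dividing cells, lay at 119 and 127 in the normal pair against 1136 and 326 in the tumour pair (log2 fold change 2.30, SE 0.62, adjusted p = 0.0618). The groups did not overlap, but the tumours differed by 1.80 on the log2 scale. It passed with FPKM as deposited (adjusted p = 0.0251) and scaled to the FPKM sum (adjusted p = 0.0371). The log2 fold change was 1.48 without tumour 1 and 3.22 without tumour 2. Tubb4b, which is also used in cilia, lay at 132 and 132 against 183 and 268 (0.74, SE 0.28, adjusted p = 0.123), with the groups not overlapping. It passed with FPKM as deposited (1.68, adjusted p = 0.0282), scaled to the FPKM sum (1.40, adjusted p = 0.0351) and under quantile normalization (1.34, adjusted p = 0.0467). The log2 fold change was 1.09 without tumour 1 and 0.48 without tumour 2. Over the 7 alternatives with the same 4 libraries the adjusted p ranged from 0.0282 to 0.254. Tubb6 lay at 3.02 and 2.86 against 4.02 and 9.46 (0.88, SE 0.52, adjusted p = 0.261). Tubb1, the isotype of platelets, was listed at 0 in every library.

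In the composition of beta-tubulin the tumours differed from each other. Tubb4b made up 49.8% and 47.8% of the family's FPKM in normal prostate, 11.8% in tumour 1 and 37.6% in tumour 2. Tubb5 made up 44.7% and 45.8% against 73.2% and 45.7%, so tumour 2 lay within the range of the normal pair and tumour 1 above it. The mean difference for Tubb5 was 14.1 percentage points, 0.361 without tumour 1 and 27.9 without tumour 2, and for Tubb4b it was -24.1, -11.2 and -37.0. Tubb3 and Tubb4a together with Tubb2b were a minor part in both tumours. Tubb3 held 4.76% and 3.78%, Tubb4a 2.40% and 4.10%, and Tubb2b 3.38% and 2.86%. Summed over the family, scaled FPKM were 265 and 277 against 1553 and 714, and over the alpha-tubulins 170 and 208 against 1925 and 706.

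Both gamma-tubulins rose. Tubg1 (chromosome 11, 101120130 to 101126419), the general form, lay at 10.9 and 9.85 in the normal pair against 83.8 and 95.6 in the tumour pair (log2 fold change 2.99, SE 0.28, adjusted p = 0.0195). This call held under all 7 alternatives with the same libraries. Tubg2, the neighbouring copy, lay at 3.84 and 2.00 against 13.1 and 23.9 (2.30, SE 0.50, adjusted p = 0.0428), with 4.8 and 5.0 implied fragments in the normal libraries, and its call was lost under 4 of the 7. Both were higher in tumour 2 than in tumour 1, Tubg1 by a small margin. Of 18 genes of the gamma-tubulin ring and the augmin complex, which carry and place gamma-tubulin, 5 rose, 0 fell and 13 did not pass, with a median log2 fold change of 1.18. Of all genes tested 9.85% were called higher, and of the 15 ring and augmin genes with an FPKM of at least 1 in both normal prostates 3 rose, where 3.65% of such genes did. Haus8, an augmin subunit, lay at 0.635 and 0 against 20.6 and 13.2 (3.78, SE 0.49, adjusted p = 0.0216). The other 4 that rose, named after their values were seen, were Tubgcp3, Nedd1, Cdk5rap2 and Haus5.

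Of 9 microtubule-binding genes 7 rose, where 9.85% of all genes tested were called higher. Of those that rose, Dclk1, Map1a, Map6 and Mapt were under an FPKM of 1 in at least 1 normal prostate. Of all such genes 30.9% were called higher. Mapt, which encodes tau of axons, lay at 0.467 and 0.513 in normal prostate, on 0.7 and 1.9 implied fragments, against 93.1 and 24.8 in the tumour pair (log2 fold change 5.05, SE 0.70, adjusted p = 0.0226). Map6, which makes microtubules resistant to cold, lay at 1.31 and 0.886 against 42.6 and 22.8 (3.95, SE 0.47, adjusted p = 0.0204). Map2, the dendritic protein, lay at 3.03 and 4.58 against 85.3 and 34.2 (3.54, SE 0.54, adjusted p = 0.0256), a ratio of means of 15.7. In all 3 genes both tumours lay above both normal prostates, and tumour 1 above tumour 2.

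Smaller rises were found in the other microtubule-binding genes called. Dclk1, a doublecortin-like kinase, was listed at 0 in the normal pair and reached 10.9 and 3.11 in the tumour pair (log2 fold change 2.81, SE 0.61, adjusted p = 0.0431). Map1b, of growing axons, lay at 1.84 and 1.79 against 16.3 and 8.49 (2.19, SE 0.47, adjusted p = 0.0427), and Map1a, of mature neurons, at 0.164 and 0.167 against 3.88 and 3.88 (2.07, SE 0.35, adjusted p = 0.0296). These 3 calls were lost under quantile normalization and when low values were not filtered. Map4, the form of non-neuronal tissues, lay at 6.96 and 5.89 against 28.2 and 23.8 (1.86, SE 0.33, adjusted p = 0.0317), a ratio of means of 4.05. Dcx, doublecortin of migrating neurons, lay at 0 and 0.00358, which cannot be told from 0, and at 9.14 and 1.78 in the tumours without passing (adjusted p = 0.0714).

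Map7, an epithelial microtubule-associated protein that recruits kinesin-1, was lower in both tumours. It lay at 16.2 and 17.4 in the normal pair against 4.05 and 11.3 in the tumour pair (log2 fold change -1.18, SE 0.53, adjusted p = 0.166). With FPKM as deposited the value was -0.32 (adjusted p = 0.694). Map7 passed under none of the 7 alternatives with the same 4 libraries. The value was -0.46 without tumour 1 and -1.78 without tumour 2. Map7 and Tuba4a were each lower in tumour 1, the tumour with the lower luminal epithelium sum, and the part of epithelial content in their values was not tested.

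Genes of the collapsin response mediator proteins, which couple guidance signals to tubulin in growing axons, were nearly silent in normal prostate. Each of the 5 genes was under an FPKM of 1 in at least 1 normal prostate, and 30.9% of such genes were called higher. Crmp1 was listed at 0 in the normal pair and reached 167 and 46.8 in the tumour pair (log2 fold change 6.49, SE 0.68, adjusted p = 0.0195). It ranked 9 among all genes tested. Dpysl5, also called CRMP5, lay at 0 and 0.262 against 66.2 and 16.5 (4.93, SE 0.74, adjusted p = 0.0251). Dpysl2, or CRMP2, which carries tubulin dimers, lay at 0.881 and 0.149 against 33.4 and 20.2 (4.20, SE 0.50, adjusted p = 0.0204). The other members did not pass, and both were higher in tumour 1. Dpysl4 lay at 0.382 and 0 against 22.8 and 3.59 (adjusted p = 0.0645), and Dpysl3, which is also found in mesenchymal cells, at 1.67 and 1.25 against 27.5 and 6.96 (adjusted p = 0.0629). Both passed with FPKM as deposited. Summed over the 5 genes, scaled FPKM were 2.93 and 1.66 against 317 and 94.2.

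Intermediate filament genes of nerve cells were present in both tumours. Nefl, Nefm and Nefh were each under an FPKM of 1 in the normal prostates and were tested through the tumours. Of genes under 1 in at least 1 normal prostate 30.9% were called higher. Nefl, the light neurofilament chain (chromosome 14, 68083883 to 68087737), was listed at 0 in the normal pair and reached 26.9 and 23.8 in the tumour pair (log2 fold change 4.72, SE 0.39, adjusted p = 0.0195). Nefm, the medium chain, lay at 0.615 and 0 against 13.4 and 13.3 (3.50, SE 0.45, adjusted p = 0.0213). Nefh, the heavy chain, lay at 0 and 0.333 against 4.25 and 10.1 (2.73, SE 0.53, adjusted p = 0.0351). The light and medium chains thus differed between the tumours by 0.17 and 0.01 on the log2 scale, while the heavy chain was higher in tumour 2. The annotated spans of Nefl and Nefm overlap on opposite strands in GENCODE M21.

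Other filament genes followed in 2 of 3 cases. All were under an FPKM of 1 in at least 1 normal prostate, and 30.9% of such genes were called higher. Ina, alpha-internexin of developing neurons, was listed at 0 in the normal pair and reached 20.7 and 12.1 in the tumour pair (log2 fold change 4.07, SE 0.45, adjusted p = 0.0195). Nes, nestin of neural precursors and growing vessels, lay at 0 and 0.106 against 2.93 and 4.76 (2.18, SE 0.39, adjusted p = 0.0319), a call lost under quantile normalization and when low values were not filtered, as was that of Nefh. Prph, peripherin of peripheral neurons, lay at 0 and 2.01 against 58.5 and 9.62 and did not pass (3.86, SE 1.02, adjusted p = 0.0603). It had the largest excess of tumour 1 over tumour 2 of the 44 genes, 2.49 on the log2 scale.

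The membrane-bound growth cone proteins, which hold phosphoinositides and organise cortical actin, all rose, where 9.85% of all genes tested did. The share was 30.9% for genes under an FPKM of 1 in at least 1 normal prostate, as Basp1 and Gap43 were. Basp1 lay at 0.563 and 0.763 in the normal pair against 91.3 and 64.8 in the tumour pair (log2 fold change 5.55, SE 0.37, adjusted p = 0.0195). Marcksl1 lay at 4.99 and 8.33 against 299 and 105 (4.57, SE 0.58, adjusted p = 0.0213), a ratio of means of 30.3, and Marcks at 5.14 and 7.52 against 116 and 60.2 (3.55, SE 0.44, adjusted p = 0.0208). Gap43, the growth-associated protein, was listed at 0 in the normal pair and reached 60.5 and 11.9 in the tumour pair (4.82, SE 0.82, adjusted p = 0.0293). Basp1 and Marcks were the steadier of these between the tumours, and the call of Marcksl1 was lost by voom, and that of Gap43 when low values were not filtered.

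Of the remaining genes, Uchl1 encodes a ubiquitin hydrolase abundant in neurons and neuroendocrine cells. It lay at 10.8 in normal 1 and 2.00 in normal 2, on 10.1 and 2.1 implied fragments, and at 260 and 171 in the tumours. The log2 fold change of 5.15 (SE 0.71, adjusted p = 0.0226) ranked 2, after Stmn1, among the 10169 genes measured in both normal prostates. Tmsb10, which encodes an actin monomer-binding thymosin, was among the most abundant of the group in normal prostate, at 41.0 and 43.4, and lay at 333 and 393 in the tumours (3.07, SE 0.24, adjusted p = 0.0195). Its SE was the lowest of the 44, and tumour 2 was slightly above tumour 1.

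Within the tumour pair most of these transcripts were higher in tumour 1. Of the 44 genes 33 were higher there and 11 in tumour 2, with a median difference of 0.87 on the log2 scale. Over all genes tested the median was 0.06, with 6901 higher in tumour 1 and 6169 in tumour 2. The difference between the tumours had a standard deviation of 1.24 over these genes and 1.24 over all genes, against 0.57 and 0.61 for the difference between the normal prostates. The excess in tumour 1 was above 2 for Prph, Dpysl4, Gap43 and Stmn4, and it was 1.94 for Dpysl5 and 1.87 for Dcx and Mapt. The genes higher in tumour 2 were led by Tuba4a, Map7, Nefh and Tubb6. With a single library each, these differences have no replicate check.

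**Figure D4:**
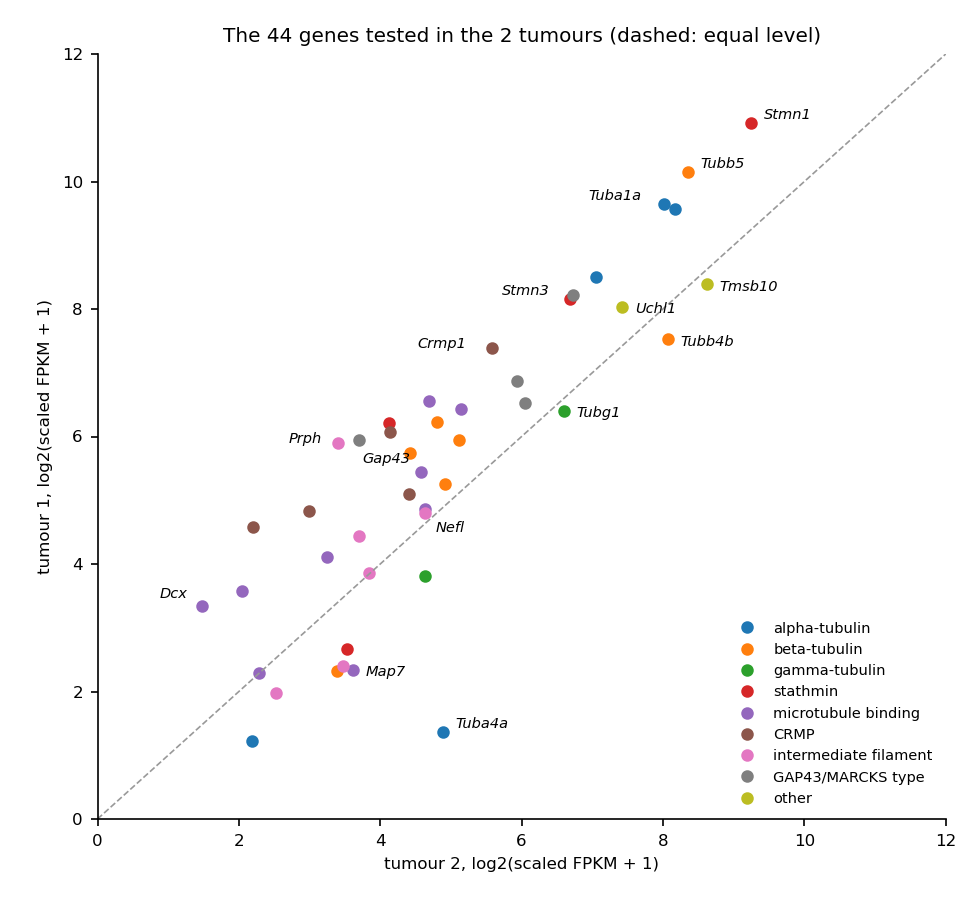
Level of the 44 genes tested as log2(scaled FPKM + 1) in tumour 2 (horizontal axis) and tumour 1 (vertical axis), coloured by role, with a dashed line of equal level. The points of 33 genes lie above the line, and Tuba4a lies farthest below it.

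Markers of other cell types were read beside these values. Summed over 14 neuroendocrine markers, scaled FPKM were 2.09 and 1.46 in the normal prostates, 951 in tumour 1 and 1276 in tumour 2, with 10 and 9 of the 14 listed at 0 in normal prostate and 2 (Foxa2 and Pcsk1) and 0 in the tumours. Summed over 20 cell cycle genes they were 42.4 and 22.1 against 1707 and 916, and all 20 rose, where 9.85% of all genes tested did. Only 4 of the 20 had an FPKM of at least 1 in both normal prostates. Of such genes 3.65% were called higher, against 30.9% of the other genes tested. Both lists thus moved with the tubulins and stathmins, the cell cycle list with the same order of the tumours and the neuroendocrine list with the reverse, and their part in the result was not tested. For 10 markers of peripheral neurons the sums were 0 and 0.264 against 7.17 and 3.98, with Dbh listed at 0 in all 4 libraries. For 11 Schwann cell markers the sums were 14.5 and 20.5 against 24.2 and 35.6, with Sox10, Cdh19, Gfra3 and Foxd3 at 0 throughout. Of the 5 Schwann cell markers tested 0 were called by limma, and the part of nerve or Schwann cells in the values above was not tested.

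Other genes that make, modify and organise microtubules are read here against the shares of all genes tested, 9.85% called higher and 8.27% lower. Of 21 folding genes (tubulin cofactors, prefoldin and the CCT chaperonin) 2 rose, 2 fell and 17 did not pass, close to those shares in both directions. Their median log2 fold change was 0.63. All 21 had an FPKM of at least 1 in both normal prostates. Of all genes of that kind 3.65% were called higher and 10.7% lower, with a median of -0.28. Pfdn4, a prefoldin subunit, rose by 2.32 (SE 0.49, adjusted p = 0.0405), and Tbcc, the cofactor that completes the dimer, fell by 2.67 (SE 0.33, adjusted p = 0.0208). Tbcc stood at 31.2 and 32.6 in the normal pair against 4.53 and 3.85. The chaperonin subunit gene Cct3 also rose and Arl2, a partner of the cofactors, also fell, both named after their values were seen. Of 15 tested genes of tubulin modification 2 rose, 1 fell and 12 did not pass, with a median of 0.52. Of the 11 with an FPKM of at least 1 in both normal prostates 0 rose and 1 fell. The 2 that rose were Vash1 and Vash2, the vasohibins that remove the last tyrosine of alpha-tubulin. Vash1 was listed at 0 in the normal pair and reached 11.5 and 4.22 in the tumour pair (adjusted p = 0.0321), and Vash2 at 0 against 9.47 and 4.21 (adjusted p = 0.0289). Ttll10, a polyglycylase, fell by 3.28 (SE 0.42, adjusted p = 0.0216).

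Proteins of the microtubule ends were mixed. Of 24 tested genes 4 rose, 2 fell and 18 did not pass, where 9.85% of all genes were called higher and 8.27% lower, with a median log2 fold change of 0.83. Of the 19 with an FPKM of at least 1 in both normal prostates 1 rose and 2 fell. Clip3, a neuronal linker protein, lay at 0.902 and 1.83 against 82.1 and 41.5 (4.68, SE 0.49, adjusted p = 0.0195). Camsap3, which anchors minus ends in epithelial cells, lay at 24.3 in both normal prostates and at 6.87 and 4.99 in the tumours (-1.88, SE 0.35, adjusted p = 0.0330). Ckap5, Tacc3 and Nav1 also rose and Mtus1 also fell, named after their values were seen. Of 8 tested severing genes only Fignl1, which acts in DNA recombination as well, rose (4.36, SE 0.46, adjusted p = 0.0195), and the median was 0.78. Of the 4 severing genes with an FPKM of at least 1 in both normal prostates 0 rose. The median of all genes tested was 0.07 on the same scale.

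Promoter sequence was listed for 31 of the 48 genes (RefSeq, build GRCm38.p6). The 250 bases before the start are given for 4 genes that rose from different levels: Tubb3 and Stmn3, at or near 0 in normal prostate, and Tuba1a and Tuba1b, present there. Capitals mark matches on either strand to any of 7 motifs. One E-box is CAGCTG and the other E-box is spelled CAGATG. One site of the E2F type is TTCCCGC and the other E2F site is spelled TTGGCGC. The TATA box was searched as TATAAA, the box named for its letters as CCAAT, and the GC box as GGGCGG. No motif contains another, but matches can overlap, for example CCAAT with TTGGCGC, or the GC box with TTCCCGC, in each case on the opposite strand.
Tubb3, chr8:123411303-123411552, plus strand: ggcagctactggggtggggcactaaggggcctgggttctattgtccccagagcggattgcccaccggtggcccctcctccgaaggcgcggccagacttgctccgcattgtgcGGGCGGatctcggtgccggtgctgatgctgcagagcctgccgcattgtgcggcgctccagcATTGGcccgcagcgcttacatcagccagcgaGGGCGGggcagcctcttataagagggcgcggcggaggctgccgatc
Stmn3, chr2:181314501-181314750, minus strand: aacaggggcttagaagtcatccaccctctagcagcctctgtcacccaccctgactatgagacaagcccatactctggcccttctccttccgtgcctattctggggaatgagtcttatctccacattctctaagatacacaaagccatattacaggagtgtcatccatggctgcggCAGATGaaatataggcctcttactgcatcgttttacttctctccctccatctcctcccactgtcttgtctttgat
Tuba1a, chr15:98953502-98953751, minus strand: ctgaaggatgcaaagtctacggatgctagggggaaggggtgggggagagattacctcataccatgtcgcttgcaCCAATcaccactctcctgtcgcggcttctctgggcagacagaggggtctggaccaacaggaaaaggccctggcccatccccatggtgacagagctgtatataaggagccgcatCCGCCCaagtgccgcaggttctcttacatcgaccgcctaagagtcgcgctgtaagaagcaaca
Tuba1b, chr15:98934391-98934640, minus strand: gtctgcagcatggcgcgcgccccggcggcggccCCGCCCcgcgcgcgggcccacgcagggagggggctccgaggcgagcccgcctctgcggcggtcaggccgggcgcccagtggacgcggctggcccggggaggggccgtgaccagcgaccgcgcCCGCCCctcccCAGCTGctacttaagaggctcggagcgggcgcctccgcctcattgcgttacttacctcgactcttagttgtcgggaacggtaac
The GC box was found in 19 of the 31 promoters (61.3%), against 32.9% of 27025 promoters of the same length, and 14 of those 19 belong to genes that rose, as do 21 of all 31. The GC box holds only G and C, and the median share of these bases was 61.6% in the 31 windows and 52.0% over all promoters. The part of base composition in the GC box count was not tested. CCAAT was found in 12 (38.7%, against 34.5%), CAGCTG in 3 (9.68%, against 12.8%), CAGATG in 3 (9.68%, against 14.5%) and TATAAA in 4 (12.9%, against 13.0%). TTCCCGC was found in 3 (9.68%, against 3.84%) and TTGGCGC in 1 (3.23%, against 2.05%). The median number of CpG pairs, the sites at which TET enzymes act, was 14 in the 31 windows and 6 over all promoters. It was 35 in Tuba1b, 21 in Tubb3, 11 in Tuba1a and 3 in Stmn3, so the neuronal genes Tubb3 and Stmn3 had a CpG-rich and a CpG-poor window. A match is only a run of letters in this window, and no binding or methylation was measured here.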

How the data were processed

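The authors deposited 1 Cufflinks gene table per library with FPKM and its confidence bounds. Per the submitters' processing notes, the tools were TopHat2 2.0.8 with Trim Galore, then Cuffdiff 2.1.1 and Cufflinks 2.1.1, on GRCm38 (mm10). For alignment settings, annotation and strand use: not given in the sources used here. Of 24883 rows, 27 with date names were left out and repeated names were summed.

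FPKM are not counts. Fragments were estimated from interval widths (2 SD of a Poisson count a side). Of low values, 71.1 to 72.5% were whole numbers to a tolerance of 0.1, where chance gives 20%. FPKM were scaled by median-of-ratios factors from 11469 genes above 0 in every library (0.793 and 0.689 for normal, 1.34 and 1.50 for tumours). Genes with an FPKM of at least 1 in at least 2 libraries were tested on log2(scaled FPKM + 1) with limma 3.58.1 (R 4.3.3), intensity trend, two-sided, threshold 0.05. The residual degrees of freedom were 2. The script was tested on simulated data.

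All 48 genes are accounted for by role. Genes that passed, the most abundant of each role and 20 fixed symbols got full statistics, as did the largest change in each direction of every pathway list. Genes and lists were chosen with earlier results of these data known. Ratios of means are given where each library had at least 3 implied fragments. Alternatives were other scalings, pseudocount, filter, trend, voom on implied fragments and leaving out each library. Coding parts were aligned with mafft 7.526. Other steps used Python 3.11.15 (numpy 2.4.6, pandas 2.3.3), and figures matplotlib 3.10.9.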

Additional observations from a re-analysis of the deposited data

How the results depend on the processing

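Against 34 genes called higher and 0 lower, the filter on low values was the choice that moved the count most among settings with all 4 libraries: 14 higher without it. The other settings gave 28 (quantile normalization) to 41 (FPKM as deposited) higher and 0 lower. Leaving out each library in turn gave 0 to 21 higher and 0 to 2 lower. The 0 came without normal 1 or normal 2, with 2 libraries against 1 and 0 calls over all genes. The 2 lower were Tuba4a and Map7. No fold change of the 44 genes changed sign under any alternative run. Over all genes tested the split was 1296 higher and 1088 lower, 3681 and 427 with FPKM as deposited, and 2537 and 554 scaled to the sum without genes above 1%. The Tuba4a share of alpha-tubulin was lower in the tumours by 52.0 percentage points (-52.0) in FPKM and by 54.3 (-54.3) in implied fragments, and for Tubb5, Tubb4b and Stmn1 the choice of FPKM or implied fragments changed the difference by less than 1 SD between libraries. No paired analysis was possible because the labels give no replicate numbers, and the numbers used here only name the libraries in accession order. Normal levels under about 3 implied fragments, among them Stmn3, Mapt, Basp1 and Map1a, show only that a transcript was scarce at this depth.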

Other observations

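Stromal and immune markers were measured beside the tubulin group, where 9.85% of all genes tested were called higher and 8.27% lower. Of 10 smooth muscle markers 3 fell, Myh11, Synm and Myl9, 0 rose and 7 did not pass, and their summed scaled FPKM were 853 and 782 in the normal prostates, 35.7 in tumour 1 and 147 in tumour 2. Of 8 tested fibroblast markers 2 rose, Fbln1 and Dpt, with sums of 124 and 99.7 against 89.2 and 460. Of the 4 fibroblast markers with an FPKM of at least 1 in both normal prostates 0 rose. Of all genes of that kind 3.65% were called higher, against 30.9% of the other genes tested. Of 8 tested macrophage markers 4 rose, Cd68, C1qb, C1qc and Lyz2, with sums of 22.4 and 19.7 against 194 and 606. Of the 3 macrophage markers with an FPKM of at least 1 in both normal prostates 2 rose, C1qb and C1qc. Of 4 tested endothelial markers 0 passed with limma, and the sums were 15.6 and 7.57 against 14.1 and 59.3. Basal epithelium markers summed to 81.2 and 79.0 against 2.67 and 62.7, with 1 of 5 tested, Krt5, called lower. Prostate secretion genes summed to 486142 and 552650 against 3.56 and 3696. The smooth muscle, fibroblast, macrophage, endothelial, basal and secretion sums were each higher in tumour 2 than in tumour 1.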
